A study of Rattus norvegicus with 20 samples.

Results

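Transcript levels in retroperitoneal tissue were compared between 5 resveratrol and 5 lean control rats. These 10 arrays were taken by their titles from the 20 arrays of the series, which also holds 5 obese and 5 rosiglitazone arrays. All rats were male ZDF rats, a line of Zucker rats in which obese animals carry a defective leptin receptor and develop diabetes; the labels give the strain as Zucker. Lean control rats ate a standard Purina chow, and obese rats had a stock diet over 6 weeks. For the resveratrol group the labels name only resveratrol, with no dose, duration or diet, and they do not say whether its rats were obese or lean. No age and no genotype beyond these group names is given. Obesity, diet and resveratrol therefore cannot be told apart in resveratrol minus lean control. All features of the array with exactly 1 gene symbol were used, 14824 of 36685, which name 14557 genes. Levels are log2 values after RMA, which corrects background, normalises arrays to 1 distribution and summarises the probes of a feature. A difference of 1 on this scale is a doubling. Every difference below is resveratrol minus lean control unless another contrast is named. A fold is left out where a group mean lies under 3.02, the median gene level, because no level was tested against background.

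Retroperitoneal fat is an internal white fat depot behind the abdominal cavity. White fat stores triglyceride in adipocytes, burns branched-chain amino acids, secretes leptin and adiponectin, and holds macrophages, vessels and fibroblast-like progenitors. In obesity, macrophages collect around adipocytes and take up lipid, and adipocyte enzymes of branched-chain amino acid breakdown are known to decline. Resveratrol is a plant polyphenol studied as an activator of the deacetylase SIRT1 and of AMP-activated protein kinase. No label says which retroperitoneal tissue was taken, and adipocyte markers were high in it. Adipoq, the hormone adiponectin, stood at 11.05, 10.94, 11.003, 11.03 and 11.10 on the lean control arrays 1 to 5. On the resveratrol arrays it stood at 9.92, 11.12, 11.18, 11.03 and 11.15. Thus 9 of the 10 arrays lay close together and resveratrol array 1 lay below them.

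Resveratrol array 1 stood apart from the other 4 arrays of its group. Over 15 measured skeletal muscle markers its mean level was 6.42, against 2.06 to 2.34 on the other resveratrol arrays and 2.26 to 2.36 on the lean control arrays. Over 12 measured milk protein and mammary genes its mean was 6.56, against 1.69 to 2.08 and 1.76 to 1.93. The milk casein Csn1s1 was 11.42 on it and 5.34 on resveratrol array 2, while the other 8 arrays lay between 1.18 and 2.46. Over 16 adipocyte markers the mean was 7.86 on resveratrol array 1 and 9.12 to 9.27 on the other 4, against 9.21 to 9.59 on the lean control arrays. For most lists and genes on which it lay far from the others, values without it are given too. The lean control arrays were not alike either. The level of Lep, the adipocyte hormone leptin, was 10.23, 8.62, 10.26, 7.88 and 8.78 on arrays 1 to 5, so that arrays 1 and 3 were the high ones. Macrophage markers were also higher on those arrays, with a mean level over 13 genes of 5.79 and 5.25 against 4.38 to 4.82. Correlations among the 10 arrays over all 36685 features lay between 0.922 and 0.977.

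**Figure D1:**
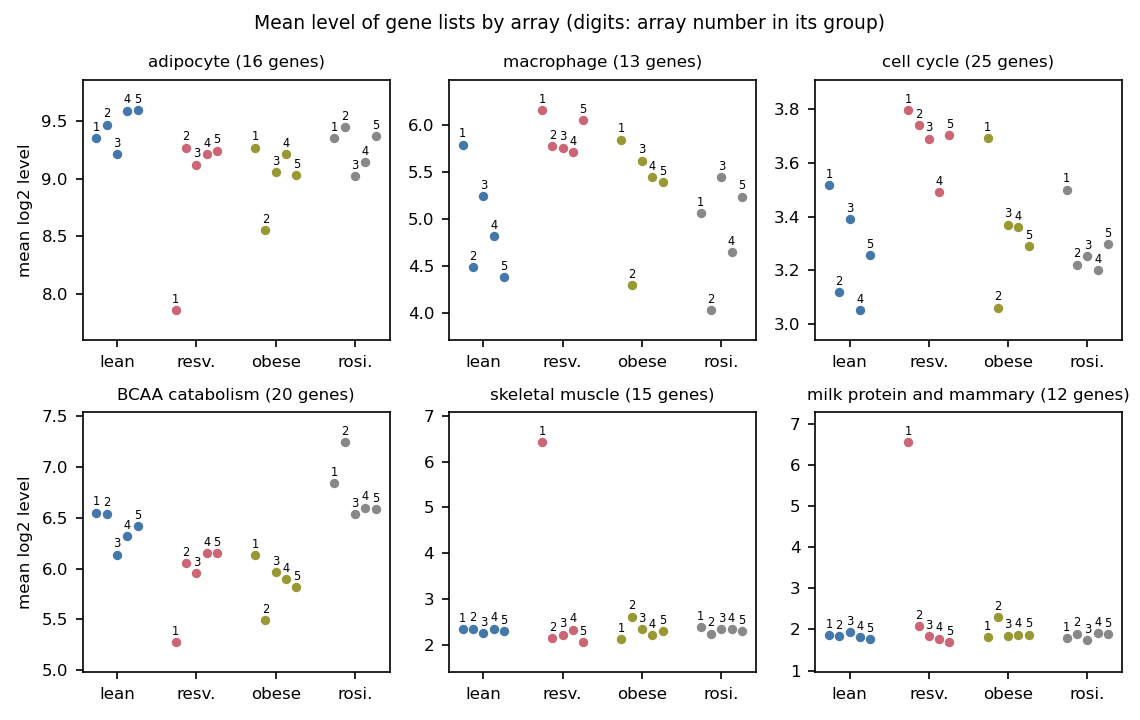
Mean log2 level of the measured members of 6 gene lists (vertical axes, each with its own range) on each array of the 4 groups (horizontal axes); each point is 1 array and its digit is the array's number in its group. Resveratrol array 1 lies at 6.42 for skeletal muscle and 6.56 for milk protein genes while all other arrays stay under 3, and the macrophage means of the other 4 resveratrol arrays lie between 5.71 and 6.05.

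In limma, 18 of 14557 genes passed the threshold of a Benjamini-Hochberg adjusted p under 0.05, which is 0.124% of the genes tested. Of these, 4 were higher (0.0275%) and 14 were lower (0.0962%) in resveratrol than in lean control arrays. At an unadjusted p under 0.05 there were 2007 genes (13.8%), 794 higher (5.45%) and 1213 lower (8.33%). For 17 of the 18 genes no resveratrol array overlapped any lean control array; Aldh2 was the exception. Over all genes, 0.907% were higher and 2.05% lower without overlap. For 8 of the 18 genes a group mean lay under the median gene level, and no level was tested against background. The differences of the 18 genes had sizes from 0.71 to 1.99, against a median standard error of 0.17 over all genes. They held receptors, transcription factors and other regulators, 2 mitochondrial enzymes, cytoskeletal and membrane proteins, and 2 proteins of cell division.

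The count depended on single arrays. Without lean control array 2, lean control array 4, resveratrol array 1 or resveratrol array 4 it was 0, with 1568, 1582, 1820 and 1891 genes at an unadjusted p under 0.05. It was 1 without resveratrol array 3 or 5, 3 without resveratrol array 2, 7 without lean control array 5 and 36 without lean control array 3. Without lean control array 1 it was 206 (1.42%), of which 133 were higher (0.914%) and 73 lower (0.501%), and all 18 genes were among them. Without resveratrol array 1 the adjusted p of the 18 genes ranged from 0.0511 to 0.102, and no difference among them moved by more than 0.14 (Amotl2). With obese array 2, which carried epithelial and urothelial markers, left out as well, 25 genes passed (0.172%), 13 higher (0.0893%) and 12 lower (0.0824%). Of the 18 genes 13 were then past the threshold, and the highest adjusted p among all 18 was 0.0697. Fitted on the 2 groups alone, 0 genes passed, with 2061 at an unadjusted p under 0.05.

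**Figure D2:**
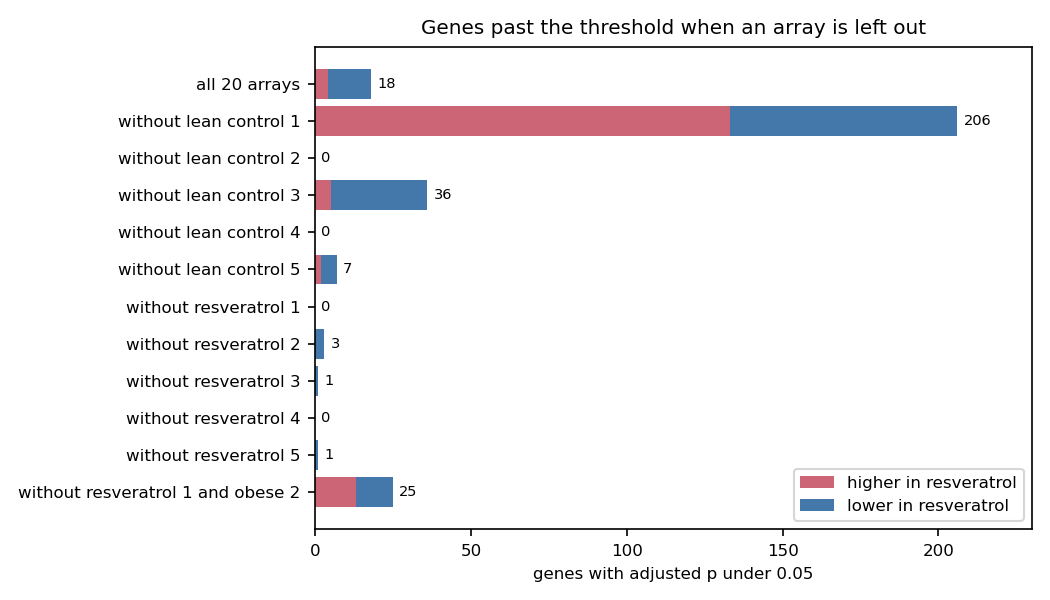
Number of genes with a limma adjusted p under 0.05 in resveratrol minus lean control (horizontal axis) with all arrays and with the named array left out (vertical axis), split into genes higher and lower in resveratrol. The count is 18 with all arrays, 206 without lean control array 1, and 0 without lean control array 2 or 4 or resveratrol array 1 or 4.

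**Figure D3:**
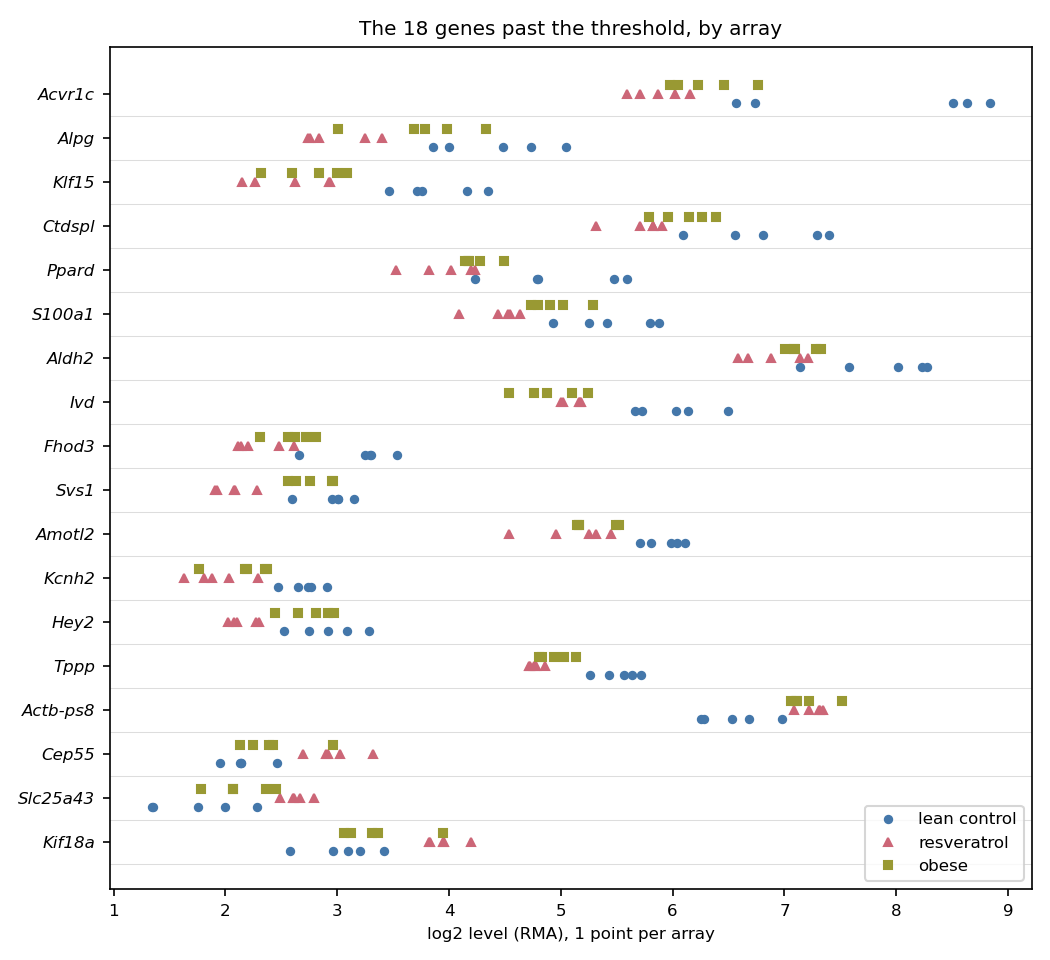
Log2 level on each lean control, resveratrol and obese array (1 point per array, horizontal axis) of the 18 genes past the threshold (vertical axis), ordered by their difference. Lean control and resveratrol points overlap only for Aldh2, and the lean control points of Acvr1c form a pair at 6.56 and 6.74 and a trio at 8.51 to 8.84.

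Among the receptors and regulators, Acvr1c had the largest difference of the 18. It encodes ALK7, a type I receptor for activin-family ligands that in mice restrains fat breakdown. Its level was 6.56, 8.63, 6.74, 8.51 and 8.84 on the lean control arrays 1 to 5 and 5.71, 6.16, 6.02, 5.87 and 5.59 on the resveratrol arrays. Every resveratrol array lay below every lean control array, and lean control arrays 1 and 3 were the ones nearest to them. Acvr1c fell by 1.99 (SE 0.36, limma adjusted p = 0.0371), or 3.97-fold, in 5 of 5 arrays. The difference was -2.31 without lean control array 1 and -1.95 without resveratrol array 1. In a bulk sample such as these, fewer cells of a type and less RNA per cell cannot be told apart. Of the TGF-beta and BMP list, which holds Acvr1c, it was the only 1 of 26 measured members past the threshold, and the list's median was -0.12 against -0.04 over all genes.

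Klf15, a zinc finger transcription factor induced by glucocorticoids that in mice drives genes of amino acid breakdown, stood at 3.71, 4.16, 3.46, 4.35 and 3.76 on the lean control arrays and at 2.15, 2.93, 2.63, 2.27 and 2.92 on the resveratrol arrays. The groups did not overlap, and Klf15 fell by 1.31 (SE 0.25, adjusted p = 0.0371). Ppard, a nuclear receptor for fatty acids that raises their oxidation, stood at 5.59, 5.47, 4.78, 4.79 and 4.23 in lean control arrays. In resveratrol arrays it stood at 4.19, 3.53, 4.02, 4.23 and 3.82, so that the lowest lean control array and the highest resveratrol array were nearly equal. Ppard fell by 1.02 (SE 0.20, adjusted p = 0.0475), or 2.02-fold. It was the only 1 of 16 measured members of the nuclear receptor list past the threshold; 13 of the 16 differences were negative, with a median of -0.22. The mean level of that list was 4.33 to 4.44 on the resveratrol arrays and 4.53 to 4.74 on the lean control arrays, without overlap, and its median without resveratrol array 1 was -0.22. On the obese arrays the mean level was 4.26 to 4.49, also below every lean control array. Hey2, a repressor downstream of Notch receptors, fell from 2.91 ± 0.29 to 2.16 ± 0.12 (SD, n = 5 each), with an adjusted p = 0.0371.

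Ctdspl, a small phosphatase of the nucleus, stood at 6.56, 7.40, 6.09, 7.29 and 6.81 in lean control arrays and at 5.31, 5.82, 5.71, 5.83 and 5.90 in resveratrol arrays. It fell by 1.12 (SE 0.22, adjusted p = 0.0475), or 2.17-fold, with the lowest lean control array, number 3, closest to the resveratrol arrays. Amotl2, an angiomotin-family scaffold of cell junctions that binds the YAP coactivator, stood at 5.71, 5.99, 5.80, 6.04 and 6.11 against 4.54, 5.25, 5.31, 5.45 and 4.96. All resveratrol arrays were lower, the lowest being array 1, and Amotl2 fell by 0.83 (SE 0.16, adjusted p = 0.0371), or 1.78-fold; without that array the difference was -0.69.

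Of the metabolic enzymes, Ivd and Aldh2 passed the threshold. Ivd is the mitochondrial isovaleryl-CoA dehydrogenase of leucine breakdown. Its level was 5.72, 6.50, 5.66, 6.14 and 6.03 on the lean control arrays and 5.17, 5.16, 5.00, 5.02 and 5.18 on the resveratrol arrays. The 5 resveratrol values spanned a narrow range under the lowest lean control value. Ivd fell by 0.90 (SE 0.16, adjusted p = 0.0371), or 1.87-fold, and by 0.92 without resveratrol array 1. Aldh2, the mitochondrial aldehyde dehydrogenase that clears acetaldehyde and aldehydes from lipid peroxidation, stood at 7.58, 8.27, 7.14, 8.23 and 8.01 in lean control arrays and at 7.21, 6.67, 6.58, 7.14 and 6.88 in resveratrol arrays. Lean control array 3 lay within the resveratrol range. Aldh2 fell by 0.95 (SE 0.19, adjusted p = 0.0471), or 1.93-fold.

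The promoters of Ivd and Klf15, the enzyme and a known regulator of amino acid breakdown, are shown as the genes that open the account of that pathway. Each window runs from 250 bases before to 50 after the gene's start, on the gene's strand, from RefSeq on GRCr8, and capitals mark a CCAAT box (CCAAT, or ATTGG for the other strand) or an E-box (CACGTG). Ivd lies at chr3:126305334-126305633 on the plus strand and Klf15 at chr4:124522765-124523064 on the plus strand.
Ivd: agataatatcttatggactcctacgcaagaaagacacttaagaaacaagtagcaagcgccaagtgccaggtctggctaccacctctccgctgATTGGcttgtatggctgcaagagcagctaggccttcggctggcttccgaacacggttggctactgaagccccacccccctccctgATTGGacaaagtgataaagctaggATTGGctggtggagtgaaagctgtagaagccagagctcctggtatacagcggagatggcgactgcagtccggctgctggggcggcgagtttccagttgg
Klf15: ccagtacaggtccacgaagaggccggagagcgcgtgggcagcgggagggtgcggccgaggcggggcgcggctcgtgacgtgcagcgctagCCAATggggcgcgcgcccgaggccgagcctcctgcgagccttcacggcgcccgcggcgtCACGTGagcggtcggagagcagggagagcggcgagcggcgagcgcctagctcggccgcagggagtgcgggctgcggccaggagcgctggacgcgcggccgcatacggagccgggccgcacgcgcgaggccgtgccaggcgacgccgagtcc
The Ivd window held CCAAT on the other strand at 3 places, whose first bases lay at -158, -73 and -49 from the start. The Klf15 window held CCAAT at -160 and CACGTG at -101. Searched on both strands, CCAAT occurred in 37.5% and CACGTG in 6.42% of 33469 rat promoter windows of this length.

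Branched-chain amino acid breakdown as a list had negative differences throughout: 0 of its 20 measured members were higher, 20 were lower, and 1 (Ivd) passed the threshold. The median difference was -0.47, against -0.04 over all genes, of which 42.7% were positive. Members at an unadjusted p under 0.05 numbered 11 of 20, all lower, against 8.33% of all genes lower at that level. For 5 of the 20 the groups did not overlap, against 2.05% of all genes lower without overlap. Besides Ivd these were Bckdha and Bckdhb, the alpha and beta subunits of the branched-chain ketoacid dehydrogenase, Pccb of propionyl-CoA carboxylase, and Aldh6a1 of valine breakdown, named after their values were seen. Their differences were -0.75 for Bckdha, -0.90 for Bckdhb, -0.73 for Pccb and -0.74 for Aldh6a1, with adjusted p values of 0.10, 0.10, 0.086 and 0.17. The mean level of the list was 6.55, 6.54, 6.14, 6.32 and 6.42 on the lean control arrays and 5.27, 6.05, 5.96, 6.15 and 6.15 on the resveratrol arrays. Resveratrol array 1, low in adipocyte markers, was the lowest, and the groups overlapped at lean control array 3. Without resveratrol array 1 the median was -0.31, and 3 of 20 differences were positive. Adipocyte markers moved in the same direction: 15 of 16 were negative with a median of -0.53, and -0.09 with 3 positive without that array. The part of adipocyte content in the list's difference was not tested.

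Other genes of amino acid and hydroxy acid metabolism did not pass and are given as values. Adhfe1, a mitochondrial hydroxyacid dehydrogenase, stood at 4.002, 5.66, 4.05, 5.67 and 5.24 against 4.02, 3.16, 3.56, 3.52 and 3.18. Lean control arrays 1 and 3 lay at the top of the resveratrol range and arrays 2, 4 and 5 far above it. Its difference was -1.44 (SE 0.30, adjusted p = 0.0675), and -1.57 (adjusted p = 0.0741) without resveratrol array 1. It was -1.67 (adjusted p = 0.00926) without lean control array 1, the lowest of its group. With other single arrays left out the limma adjusted p of Adhfe1 reached 0.203. Acy1, which releases amino acids from acetylated forms, differed by -0.45 (SE 0.18, adjusted p = 0.271). Slc43a1, a carrier of branched-chain and other large neutral amino acids, differed by -0.96 (SE 0.23, adjusted p = 0.0896), with every resveratrol array (5.08 to 5.66) below every lean control array (5.70 to 6.82).

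The remaining lower genes were cytoskeletal, membrane and secreted proteins. S100a1, a calcium-binding protein abundant in muscle, stood at 5.41, 5.88, 4.93, 5.25 and 5.80 against 4.43, 4.53, 4.55, 4.09 and 4.64. The groups were separate, and it fell by 1.01 (SE 0.19, adjusted p = 0.0371), or 2.01-fold. Tppp, which promotes tubulin polymerisation, stood at 5.71, 5.56, 5.26, 5.43 and 5.63 against 4.76, 4.72, 4.78, 4.73 and 4.86, and fell by 0.75 (SE 0.14, adjusted p = 0.0371), or 1.68-fold. Its resveratrol values spread over 0.06 (SD), so the groups lay well apart. Fhod3, a formin that organises actin, fell from 3.21 ± 0.33 to 2.31 ± 0.22 (SD, n = 5 each; adjusted p = 0.0371). Kcnh2, a voltage-gated potassium channel, fell from 2.71 ± 0.16 to 1.93 ± 0.25 (adjusted p = 0.0371). Alpg, of the alkaline phosphatase family, stood at 4.004, 5.05, 3.86, 4.73 and 4.48 against 2.74, 3.25, 3.40, 2.75 and 2.84. It fell by 1.43 (SE 0.23, adjusted p = 0.0232), with lean control arrays 1 and 3 nearest to the resveratrol arrays. Svs1, a seminal vesicle secretory protein, had the smallest adjusted p of all genes. It stood at 3.15, 2.95, 3.01, 3.004 and 2.59 in lean control arrays and at 2.08, 2.08, 1.91, 1.93 and 2.28 in resveratrol arrays. It fell by 0.89 (SE 0.13, adjusted p = 0.0161). Its group means, 2.94 and 2.06, both lay under the median gene level, and no level was tested against background. Of the 8 measured members of the male accessory gland list, 1 (Svs1) passed and the median was -0.16. Hey2 and Tppp lie outside the naming rule and were named after their values were seen.

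Of the 4 genes that were higher, 2 serve cell division. Kif18a, a kinesin that aligns chromosomes at mitosis, stood at 3.10, 2.58, 3.21, 2.96 and 3.42 on the lean control arrays and at 4.20, 3.83, 3.95, 3.82 and 3.95 on the resveratrol arrays. The groups were separate, and Kif18a rose by 0.90 (SE 0.17, adjusted p = 0.0371), or 1.86-fold. Cep55, a midbody protein needed for the final cut between daughter cells, stood at 2.46, 2.14, 2.13, 1.95 and 2.14 against 2.92, 2.90, 2.69, 3.03 and 3.32, and rose by 0.80 (SE 0.15, adjusted p = 0.0371). For Cep55 too every resveratrol array lay above every lean control array. Both Cep55 group means, 2.17 in lean control and 2.97 in resveratrol arrays, lay under the median gene level. Those of Kif18a, 3.05 and 3.95, lay above it. Slc25a43, of the mitochondrial carrier family, stood at 2.28, 1.76, 1.997, 1.34 and 1.35 against 2.60, 2.62, 2.79, 2.49 and 2.67, and rose by 0.89 (SE 0.18, adjusted p = 0.0471). Actb-ps8, an actin beta pseudogene, stood at 6.25, 6.54, 6.68, 6.29 and 6.98 against 7.22, 7.32, 7.34, 7.09 and 7.31, and rose by 0.71 (SE 0.14, adjusted p = 0.0371), or 1.63-fold. A pseudogene shares sequence with its parent gene, so its signal is uncertain and may include transcripts of actin genes.

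The cell cycle list, which holds neither Kif18a nor Cep55, had positive differences with no member past the threshold. Of its 25 measured members 24 had a positive difference and 0 passed over all genes in limma, while 13 were higher at an unadjusted p under 0.05, against 5.45% of all genes. The median was 0.46, and 0.42 without resveratrol array 1 with 24 still positive. The mean level was 3.52, 3.12, 3.39, 3.05 and 3.26 on the lean control arrays and 3.80, 3.74, 3.69, 3.49 and 3.70 on the resveratrol arrays, so lean control array 1 overlapped resveratrol array 4. Cdc20, an activator of the anaphase-promoting complex and the member with the smallest p, stood at 2.32, 2.997, 2.56, 2.62 and 2.66 against 3.20, 3.02, 3.15, 3.02 and 3.07. The groups touched without overlap, and the difference was 0.46 (SE 0.14, adjusted p = 0.139). The lean control mean of Cdc20, 2.63, lay under the median gene level of 3.02. The lowest mean level of the list, 3.05, lay close to that median, and no level was tested against background. Macrophage markers, with a median difference of 1.10, were higher in the same arrays; which cells carried the cell cycle transcripts was not tested.

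The promoters of these cell division genes are shown because Cep55 and Kif18a were the division genes past the threshold, Cdc20 was the list member with the smallest p, and a repressor element is known in many such promoters. In capitals are the cell cycle homology region core (TTTGAA, or TTCAAA for the other strand), CCAAT and the cyclic AMP response element (TGACGTCA). Cep55 lies at chr1:245245113-245245412 (plus strand), Kif18a at chr3:116218757-116219056 (plus strand) and Cdc20 at chr5:137255750-137256049 (minus strand), in the same RefSeq windows on GRCr8.
Cep55: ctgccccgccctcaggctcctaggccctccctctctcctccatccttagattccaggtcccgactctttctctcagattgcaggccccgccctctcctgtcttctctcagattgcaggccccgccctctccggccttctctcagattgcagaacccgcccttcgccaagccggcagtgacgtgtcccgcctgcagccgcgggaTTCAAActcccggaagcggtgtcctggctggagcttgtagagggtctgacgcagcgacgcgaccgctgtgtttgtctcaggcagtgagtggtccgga
Kif18a: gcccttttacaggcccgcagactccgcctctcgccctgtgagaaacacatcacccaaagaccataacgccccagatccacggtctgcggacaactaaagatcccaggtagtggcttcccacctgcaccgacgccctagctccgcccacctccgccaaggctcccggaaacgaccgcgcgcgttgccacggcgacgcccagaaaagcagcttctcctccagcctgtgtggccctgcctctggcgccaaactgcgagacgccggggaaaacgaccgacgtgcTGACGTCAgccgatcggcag
Cdc20: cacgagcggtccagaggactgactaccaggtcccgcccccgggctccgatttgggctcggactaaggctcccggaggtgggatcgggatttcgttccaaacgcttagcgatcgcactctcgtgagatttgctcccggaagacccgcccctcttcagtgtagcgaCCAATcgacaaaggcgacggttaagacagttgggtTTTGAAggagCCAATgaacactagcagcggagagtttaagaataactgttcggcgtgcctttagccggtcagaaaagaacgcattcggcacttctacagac
Cep55 held TTTGAA on the other strand at -47, and Cdc20 held it as written at -51 with CCAAT at -86 and -41. Kif18a held none of these but TGACGTCA at 31 bases after the start. Searched on both strands, TTTGAA was in 8 of the 20 cell cycle list windows (40.0%) and in 18.3% of all 33469 windows. CCAAT was in 14 of the 20 (70.0%), against 37.5%, and TGACGTCA in 0 of the 20, against 1.83%. Over the 14 windows of the 11 genes past the threshold that had one, the shares were 14.3% for TTTGAA and 21.4% for CCAAT, below those of all windows. A match of letters is a description of the sequence and not a bound site.

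Macrophage markers had higher values in the resveratrol arrays, but 0 passed in limma. Of 13 measured members 11 were positive, and the median was 1.10, and 10 were higher at an unadjusted p under 0.05, against 5.45% of all genes. The mean level was 6.16, 5.78, 5.76, 5.71 and 6.05 on the resveratrol arrays and 5.79, 4.49, 5.25, 4.82 and 4.38 on the lean control arrays. Lean control array 1 lay inside the resveratrol range and lean control array 3 next below it. The median was 0.93 without resveratrol array 1, when 0 of the 13 passed. Without lean control array 1 it was 1.35, and 4 of the 13 passed (0.914% of all genes were higher and past the threshold in that fit). That array had the highest macrophage mean of its group, so leaving it out widens the difference, and the 4 calls add no support. With 1 array left out the median ranged from 0.85 to 1.35. Cd68, a lysosomal protein of macrophages, stood at 7.59, 4.81, 6.46, 5.11 and 4.67 against 7.28, 7.86, 7.47, 7.26 and 8.01. Its resveratrol values were alike, while its lean control values spread over 1.26 (SD). The difference was 1.85 (SE 0.47, adjusted p = 0.101), and 1.93 (adjusted p = 0.137) without resveratrol array 1. It was 2.32 (adjusted p = 0.00926) without lean control array 1, the highest of its group. With other single arrays left out the limma adjusted p of Cd68 reached 0.259. C3ar1, the receptor for complement fragment C3a, differed by 1.99 (SE 0.55, adjusted p = 0.126).

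Genes of lipid-laden macrophages behaved alike. Of 17 measured members of the lipid-associated macrophage list, 14 were positive with a median of 0.57, 0 passed in limma and 10 were higher at an unadjusted p under 0.05, against 5.45% of all genes. Without resveratrol array 1, 0 passed. Without lean control array 1, 7 passed, against 0.914% of all genes. Of the fits with 1 array left out, that one gave the list its highest median, 0.77, so the 7 calls add no support. Gpnmb, a membrane glycoprotein of such cells, stood at 8.85, 5.89, 7.68, 4.92 and 4.34 in lean control arrays and at 8.21, 8.65, 8.80, 8.68 and 9.15 in resveratrol arrays. Lean control array 1 was within the resveratrol range, array 3 below it and the other 3 far below. Its difference was 2.37 (SE 0.68, adjusted p = 0.128). Trem2, a lipid receptor of these cells, differed by 1.14 (SE 0.32, adjusted p = 0.128), Plin2, a coat protein of lipid droplets, by 1.30 (SE 0.38, adjusted p = 0.133), and the chemokine Ccl6 by 1.29 (SE 0.33, adjusted p = 0.101). Plin2 was named as the member with the smallest p of the PPARG target list, where 14 of 18 differences were negative (median -0.38). Gpnmb, Trem2, Plin2 and Ccl6 each had a limma adjusted p = 0.0198 without lean control array 1, the highest lean control array for each. With other single arrays left out it reached 0.305, 0.313, 0.307 and 0.273, in that order. Lysosomal genes followed, with 19 of 22 positive and a median of 0.35; Lipa, the acid lipase of lysosomes, differed by 1.44 (SE 0.46, adjusted p = 0.152). The T and NK cell list had a median of 0.07, and -0.05 without resveratrol array 1. Its mean was 2.91 on that array and 2.28 to 2.54 on the 9 others.

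**Figure D4:**
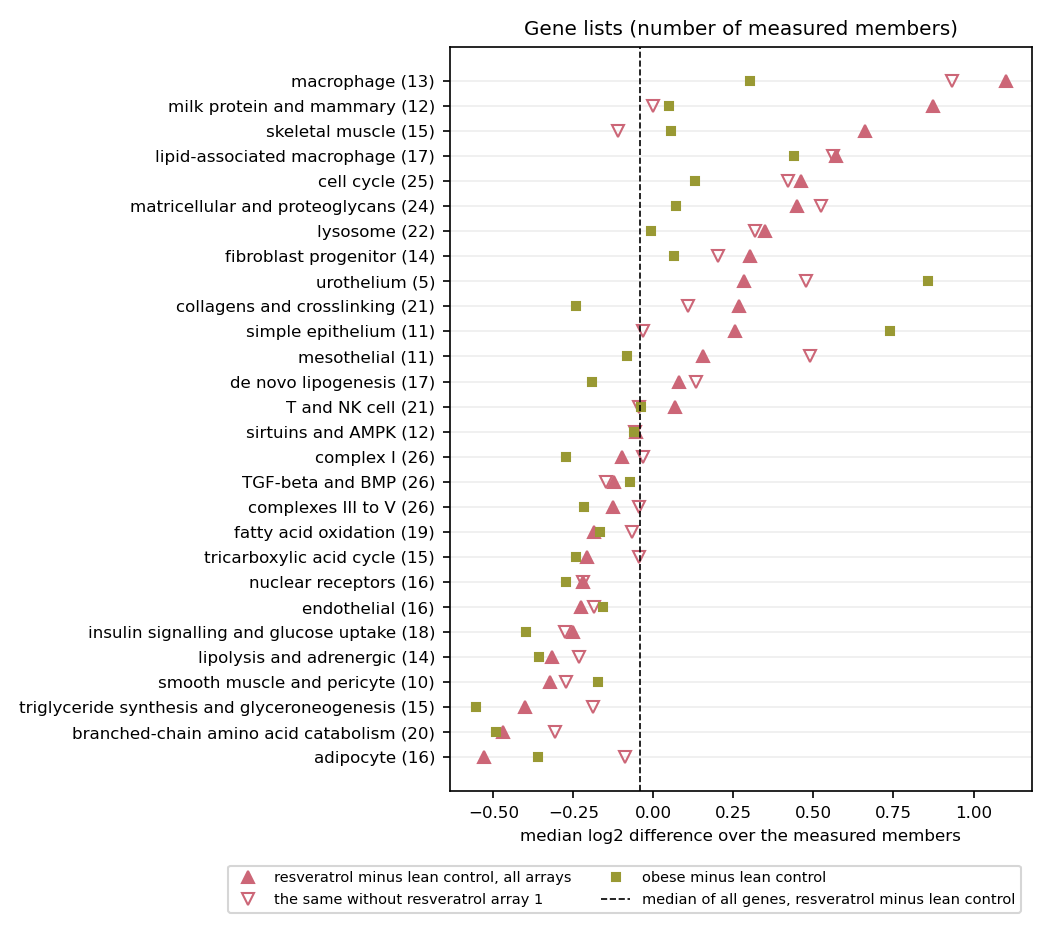
Median log2 difference (horizontal axis) over the measured members of 28 gene lists (vertical axis, number of members in parentheses) for resveratrol minus lean control with all arrays, the same without resveratrol array 1, and obese minus lean control, which uses the same lean control arrays. The macrophage median is 1.10 and 0.93 without array 1, while the skeletal muscle median goes from 0.66 to -0.11 and the adipocyte median from -0.53 to -0.09.

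Matrix genes had mixed differences. Matricellular proteins and proteoglycans were positive in 19 of 24 members with a median of 0.45, and 0.53 without resveratrol array 1. Lum, the proteoglycan lumican that spaces collagen fibrils, stood at 6.21, 5.48, 6.47, 6.25 and 5.90 against 8.14, 6.89, 7.34, 6.62 and 7.35. Its groups did not overlap, array 1 was the highest, and its difference was 1.21 (SE 0.31, adjusted p = 0.104), or 0.99 without that array. Collagens and their crosslinking enzymes were positive in 14 of 21 members with a median of 0.27, and 0.11 without resveratrol array 1. Thy1, a surface protein of fibroblast-like progenitors, differed by 0.96 (SE 0.30, adjusted p = 0.152); 11 of the 14 measured markers of those cells were positive, with a median of 0.30, and 0.20 without resveratrol array 1. No member of these lists passed in limma; at an unadjusted p under 0.05, 7 matricellular genes and 4 progenitor markers were higher, and of the collagen list 1 was higher and 1 lower, against 5.45% of all genes higher and 8.33% lower. In the basement membrane list 8 of 13 differences were negative. Nid2, a nidogen that links basement membrane networks, differed by -0.85 (SE 0.25, adjusted p = 0.137), and its resveratrol arrays (5.28 to 6.15) lay below its lean control arrays (6.21 to 7.17).

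Vessel markers had negative differences with none past the threshold in limma; at an unadjusted p under 0.05, 3 endothelial and 2 pericyte markers were lower and 1 endothelial marker was higher, against 8.33% of all genes lower and 5.45% higher. Endothelial markers were negative in 13 of 16 members (median -0.23, and -0.19 without resveratrol array 1). Egfl7, a protein secreted by endothelial cells, differed by -0.65 (SE 0.16, adjusted p = 0.101) with separate groups. Smooth muscle and pericyte markers were negative in 9 of 10 members (median -0.32, and -0.27 without resveratrol array 1). Mcam, an adhesion molecule of vessel walls, stood at 7.95, 8.70, 7.89, 8.62 and 8.72 against 6.73, 7.84, 7.66, 7.86 and 7.74. Every resveratrol array lay below every lean control array, array 1 most of all, and the difference was -0.81 (SE 0.21, adjusted p = 0.110), or -0.60 without array 1.

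In the insulin pathway, which drives glucose uptake and triglyceride storage, 13 of 18 members were negative and 0 passed in limma, with 7 lower at an unadjusted p under 0.05 against 8.33% of all genes. The median was -0.25, and -0.28 without resveratrol array 1. The list's mean level was 5.06 to 5.23 on the resveratrol arrays, below 5.36 to 5.55 on the lean control arrays. On the obese arrays it was 4.86 to 5.30, also below every lean control array. Insr, the insulin receptor, stood at 5.68, 6.49, 5.43, 5.67 and 5.79 against 5.22, 5.15, 5.07, 4.97 and 5.28. The groups were separate, and the difference was -0.67 (SE 0.17, adjusted p = 0.101). Irs1, a docking protein of the receptor, stood at 4.23, 5.57, 4.17, 5.80 and 6.12 against 4.85, 4.46, 4.42, 4.24 and 4.27, with lean control arrays 1 and 3 below all resveratrol arrays and the others above them. Its difference was -0.73 (SE 0.32, adjusted p = 0.316). Slc2a4, the insulin-responsive glucose transporter, differed by -0.63 (SE 0.25, adjusted p = 0.269).

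No gene of the triglyceride synthesis, lipolysis or lipogenesis lists passed in limma; at an unadjusted p under 0.05, 4, 6 and 1 of them were lower and 1 of lipogenesis was higher, against 8.33% of all genes lower and 5.45% higher. Triglyceride synthesis and glyceroneogenesis genes were negative in 13 of 15 members with a median of -0.40, and lipolysis and adrenergic genes in 12 of 14 with a median of -0.32. Without resveratrol array 1, where these lists were lowest, the medians were -0.19 and -0.23. Pck1, the enzyme that starts glyceroneogenesis, differed by -1.07 (SE 0.41, adjusted p = 0.251), and by -0.75 without that array. Lpin1, a phosphatidate phosphatase, differed by -0.90 (SE 0.32, adjusted p = 0.204), and by -0.65 without it. Pde3b, by which insulin restrains lipolysis, differed by -0.85 (SE 0.26, adjusted p = 0.138), and by -0.57 without it. De novo lipogenesis genes were split, 9 positive and 8 negative. Scd2, a fatty acid desaturase, stood at 6.60 on resveratrol array 1 and 4.98 to 5.26 on the other 4, against 3.62 to 5.13 in lean control arrays, a difference of 1.02 (SE 0.30, adjusted p = 0.130), and of 0.72 without that array. Scd, a desaturase of the same family, was 7.43 on resveratrol array 1 and 10.38 to 10.79 on the other 4. Its difference was -0.11 (SE 0.43, adjusted p = 0.945), and turned to 0.50 (adjusted p = 0.357) without that array. Lep was 5.89 on resveratrol array 1 and 10.29, 10.43, 10.50 and 10.31 on the others. Its difference of 0.33 (SE 0.67, adjusted p = 0.879) became 1.23 (adjusted p = 0.223) without it.

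Mitochondrial genes, which resveratrol is studied for, had small negative medians. The medians were -0.18 for 19 genes of fatty acid oxidation, -0.21 for 15 of the tricarboxylic acid cycle, -0.10 for 26 of complex I and -0.13 for 26 of complexes III to V. Without resveratrol array 1 they were -0.07, -0.05, -0.03 and -0.05, close to -0.04 over all genes, and 0 members of any of the 4 lists passed in limma. At an unadjusted p under 0.05 there were 1 higher and 1 lower gene of fatty acid oxidation, 3 lower of the tricarboxylic acid cycle and 1 lower of each complex list, against 5.45% of all genes higher and 8.33% lower. Ndufs7, a complex I subunit, was nearest to it, at 7.01, 6.73, 6.41, 6.60 and 6.41 against 5.13, 5.73, 5.64, 5.96 and 5.95. Its groups did not overlap, and its difference was -0.95 (SE 0.22, adjusted p = 0.0782). Of the sirtuin and AMPK list, 5 of 12 members were positive with a median of -0.05, and 0 passed, with 1 higher and 4 lower at an unadjusted p under 0.05 (5.45% and 8.33% of all genes). Prkaa1, a catalytic subunit of AMP-activated protein kinase, differed by -0.58 (SE 0.18, adjusted p = 0.138), and by -0.45 without resveratrol array 1. The other catalytic subunit, Prkaa2, differed in the opposite direction, by 0.60 (SE 0.25, adjusted p = 0.276). Prkaa2 lies outside the naming rule and was named after its value was seen. Sirt1, Pparg, Fasn and Lepr are not analysed here. Ppargc1a, a coactivator of mitochondrial biogenesis, differed by 0.14 (SE 0.56, adjusted p = 0.948). Ucp1, the uncoupling protein of brown fat, was under the median gene level on all resveratrol arrays (0.95 to 1.31), and differed by -0.89 (SE 0.75, adjusted p = 0.654).

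Obese minus lean control was set beside these values, with which it shares the lean control arrays. In that comparison 26 genes passed in limma (0.179%), 6 higher (0.0412%) and 20 lower (0.137%); 1960 (13.5%) had an unadjusted p under 0.05. Ivd differed by -0.90 in resveratrol and by -1.11 (SE 0.16, adjusted p = 0.00556) in obese arrays. Acvr1c differed by -1.99 and -1.56, Klf15 by -1.31 and -1.12, Ppard by -1.02 and -0.72, and Tppp by -0.75 and -0.57. Actb-ps8 differed by 0.71 in resveratrol and by 0.65 (SE 0.14, adjusted p = 0.04996) in obese arrays. The values lay farther apart for Alpg at -1.43 and -0.67, Svs1 at -0.89 and -0.17, Hey2 at -0.75 and -0.15, Kif18a at 0.90 and 0.31, and Cep55 at 0.80 and 0.26. The difference itself, resveratrol minus obese, had 0 genes past the threshold in limma (0.0%), with 1286 (8.83%) at an unadjusted p under 0.05. Among the 18 genes the smallest adjusted p of that difference was 0.1502 (Svs1, -0.72, SE 0.13). It was -0.76 (SE 0.23, adjusted p = 0.365) for Alpg, -0.60 (SE 0.14, adjusted p = 0.284) for Hey2, 0.54 (SE 0.15, adjusted p = 0.321) for Cep55 and 0.59 (SE 0.17, adjusted p = 0.328) for Kif18a. No gene was thus shown to differ between resveratrol and obese arrays. Of the lists, branched-chain amino acid breakdown had medians of -0.47 and -0.49, lipid-associated macrophage 0.57 and 0.44, macrophage 1.10 and 0.30, cell cycle 0.46 and 0.13, and matricellular genes 0.45 and 0.07. Obese medians were larger in size for the insulin pathway (-0.25 and -0.40) and triglyceride synthesis and glyceroneogenesis (-0.40 and -0.55). The same held for nuclear receptors (-0.22 and -0.27) and immediate early genes (-0.24 and -0.44). Insr differed by -0.67 in both comparisons. Gpnmb differed by 2.37 and 2.04, and Trem2 by 1.14 and 1.08. Obese array 2, with a macrophage mean of 4.30 and a urothelium mean of 6.43, lay below the other obese arrays (5.39 to 5.85) in the first of these means and above them (2.58 to 3.19) in the second.

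**Figure D5:**
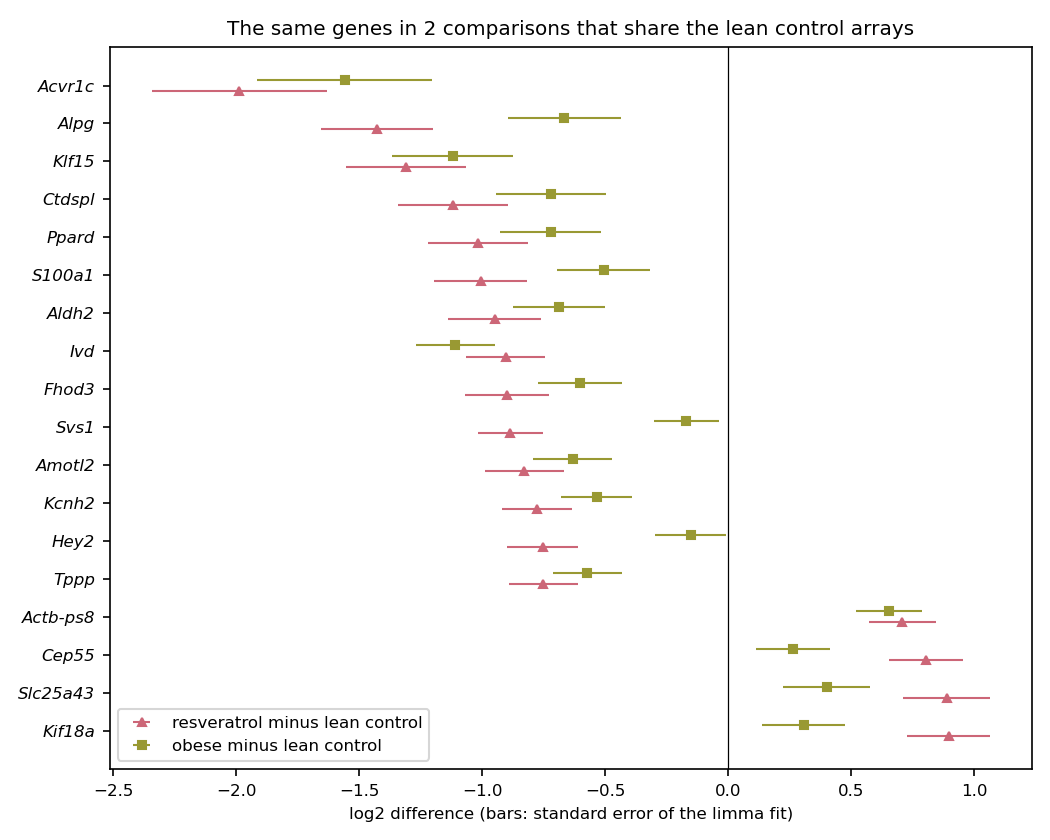
Log2 difference from lean control arrays (horizontal axis; bars are the standard error of the limma fit) of the 18 genes past the threshold in resveratrol (vertical axis), in resveratrol and in obese arrays. Acvr1c lies at -1.99 and -1.56 and Ivd at -0.90 and -1.11, while Alpg (-1.43 and -0.67), Svs1 (-0.89 and -0.17) and Hey2 (-0.75 and -0.15) are among the genes whose values lie farthest apart.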

How the data were processed

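RNA from 20 samples (100 ng each) was hybridised to Affymetrix Rat Gene 2.1 ST arrays, per the labels' protocols. The authors deposited 1 table of log2 values, made with RMA per the submitters' processing notes; no version of it is given in the sources used here. That the scale is log2 rests on this note and on the values' range. The labels number the arrays of a group as biological replicates. The platform table gave 1 symbol to 14824 of 36685 features, several to 829, and did not list 21032. For 234 genes with several features the feature with the highest mean was used.

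The test was lmFit with eBayes of limma 3.58.1 (R 4.3.3), fitted to the means of all 4 groups, 16 residual and 5.41 prior degrees of freedom, two-sided, with Benjamini-Hochberg adjusted p under 0.05 over 14557 genes. The test was run on simulated data first. The number of arrays limits the precision. A gene list is described by its counts and median; 951 of 1305 entries in 62 lists were matched, 7 through an older symbol. Genes were named as the 12 largest differences per direction past the threshold, the list member with the smallest p, and fixed genes; which of these were printed was decided for length. The members, lists, rules and alternatives were chosen with earlier results of these data known. Same-numbered lean control and resveratrol arrays had residual correlations from -0.132 to 0.051, and lean control and obese array 1 had 0.356. Numbers were not used to pair arrays in the main fit. Motifs were searched as exact letters on both strands. Alternatives are given in the closing section.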

Additional observations from a re-analysis of the deposited data

Results flagged for a closer look

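In groups of 5 arrays, an array was singled out when its gap to the nearest other array exceeded 0.71 of the group's range. Of 180 groups tested 22 were singled out, and chance does this in about 1 of 20 groups.

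Most were resveratrol array 1. Lists with a high mean level on it were skeletal muscle (6.42), milk protein and mammary (6.56), simple epithelium (3.68) and T and NK cell (2.91). Lists with a low mean level were adipocyte (7.86), branched-chain amino acid breakdown (5.27), triglyceride synthesis and glyceroneogenesis (5.54), and lipolysis and adrenergic (5.61). Among genes of fat cells, Lep (5.89), Adipoq (9.92), Cd36 (9.72), Scd (7.43), Pck1 (7.43), Rbp4 (7.29) and Pde3b (6.03) were low on it. Ldhb (5.64), a lactate dehydrogenase subunit, and the vessel wall protein Mcam (6.73) were low on it too, and the desaturase Scd2 (6.60) was high.

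Other arrays were singled out for single values. Resveratrol array 4 was high in Cebpa, an adipocyte transcription factor (6.22, against 5.82 to 5.90), and resveratrol array 5 in the MHC class II gene RT1-Ba (6.42, against 5.38 to 5.66). Lean control array 1 was high in Sqle, of cholesterol synthesis (4.78, against 3.09 to 3.51), and in the mean of fatty acid oxidation genes (6.76, against 6.26 to 6.395).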

How the results depend on the processing

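The count of 18 genes for resveratrol minus lean control was 14 with arrays centred, 12 without dim genes, 19 with trend and robust eBayes, and 18 with the mean of a gene's features or a 1.5-fold minimum. It was 1 after quantile normalisation again (with 2008 genes at an unadjusted p under 0.05), 0 over all 36685 features, 398 with array weights (216 higher, 182 lower), 0 with the compared groups alone, and 1 when resveratrol array 1 was also left out. Leaving out 1 array gave 0 to 206. With the replicate number as a block, which was not used in the main fit, it was 71 (45 higher, 26 lower). Resveratrol minus obese had 0 genes, 3 with array weights, and 0 to 1 with 1 array left out. Obese minus lean control had 26 genes, 3 after quantile normalisation, 2 centred, 44 without dim genes, 13 with the mean of features, 4 over all features, 0 alone, 3 with the replicate block, 2 without resveratrol array 1 and obese array 2, and 2 to 65 with 1 array left out. The cause of these changes was not tested.

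Over the genes named, 972 values kept direction and side of the threshold, 196 lost and 48 gained a call, and 14 turned sign. Those that turned sign were Adipoq, Scd and Cd36, none of them past the threshold in any setting. Adipoq was 0.028 with array weights, 0.096 in all 3 settings without resveratrol array 1, and -0.22 to 0.096 with 1 array left out. Scd was 0.345 with array weights, 0.007 and 0.04 without lean control array 1 and 3, 0.50 without resveratrol array 1, and -0.339 to 0.50 with 1 array left out. Cd36 was -0.015, -0.01, -0.002 and -0.003 without resveratrol array 2, 3, 4 and 5, and -0.015 to 0.299 with 1 array left out.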

Other observations

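Some further lists had small differences in resveratrol minus lean control, with 0 members past the threshold in limma in any of them. Cholesterol synthesis and uptake genes were positive in 13 of 17 members (median 0.16, and 0.24 without resveratrol array 1). Sqle, the squalene epoxidase, differed by 0.71 (SE 0.24, adjusted p = 0.185), and by 1.003 (adjusted p = 0.00995) without lean control array 1, on which it was highest. With other single arrays left out its limma adjusted p reached 0.388. Immediate early genes were negative in 17 of 19 members (median -0.24). Zfp36, which speeds the decay of cytokine mRNAs, differed by -0.75 (SE 0.24, adjusted p = 0.169). Circadian clock genes were negative in 8 of 11 members (median -0.30); the hour of tissue collection is not given in the labels. Interferon-stimulated genes were positive in 17 of 22 members (median 0.23, and 0.13 without resveratrol array 1).

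Alb, albumin, and Frzb, a secreted Wnt antagonist, had lean control values in the same arrangement as Acvr1c and Adhfe1. For Alb the lean control levels were 5.19, 8.16, 3.91, 8.73 and 8.80, against 3.96 to 5.52 on resveratrol arrays. For Frzb they were 4.11, 6.81, 3.59, 6.71 and 6.79, against 3.503 to 4.57. Their differences were -2.39 (SE 0.68, adjusted p = 0.128) and -1.74 (SE 0.48, adjusted p = 0.123). In both genes arrays 1 and 3 were the low ones, the arrays on which leptin was high.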
